A study of Mus musculus with 32 samples.

Results

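A set of 10 genes that mark the epithelial lining of the gut was followed through nuclei sorted from the muscle layer of the mouse intestine, a tissue that lies outside that lining. The genes were Muc2, Epcam, Krt8, Krt20, Vil1, Cdx2, Fabp2, Apob, Npc1l1 and Olfm4. They were chosen by name as epithelial genes, with earlier results of these data known, and are 10 of the 51912 gene identifiers in the deposited table. Counts of members set beside shares of all genes are therefore a description and no independent test. All 10 were matched to the annotation, and 9 passed the filter on low counts in the fit of all 32 libraries. Olfm4 did not.

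The mice were C57BL/6 animals kept specific pathogen-free at 2 facilities, the University of Bern and the Francis Crick Institute. All groups carried the same vector: AAV9-CaMKII-EGFP-KASH was injected into a vein, and its CaMKII promoter drives a green protein anchored to the nuclear envelope. The longitudinal muscle with its myenteric plexus was peeled off 5 weeks later, nuclei were released by Dounce homogenization, and single DAPI-stained nuclei were sorted into EGFP+ (neuronal) and EGFP- (non-neuronal) fractions. EGFP+ therefore means nuclei in which this vector and promoter were active, and EGFP- means all other intact nuclei of the peel. The 8 groups of 4 libraries were the neuronal and non-neuronal sorts of Bern colon (Bern_ColPos, Bern_ColNeg), Bern small intestine (SI; Bern_SiPos, Bern_SiNeg), Crick colon (Crick_ColPos, Crick_ColNeg) and Crick SI (Crick_SiPos, Crick_SiNeg). The labels give no age or sex and do not say whether the 4 libraries of a group came from separate animals, so p-values measure the spread between these samples.

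The intestinal epithelium is a single sheet of cells renewed from crypts. Goblet cells secrete the gel-forming mucin encoded by Muc2, which builds the mucus layer and is most abundant toward the distal gut. Enterocytes of the small intestine absorb fat and cholesterol: Npc1l1 takes up cholesterol, Fabp2 binds fatty acids inside the cell, and Apob is the scaffold of the chylomicrons that leave it. Epcam joins epithelial cells, Krt8 and Krt20 are keratin filaments, Vil1 (villin) bundles actin in microvilli, Cdx2 is the homeobox factor that sets intestinal identity, and Olfm4 marks crypt base cells in the mouse small intestine.

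The stretches upstream of 3 of these genes are shown as examples from both sides of the difference between colon and SI described below: Muc2 among the 3 members higher in colon, Fabp2 and Apob among the 3 lower. Each is the 250 bases before the RefSeq start on GRCm38.p6, read 5′ to 3′ on the gene's strand, which is the plus strand for all 3. The Muc2 stretch lies at chr7:141690090-141690339, Fabp2 at chr3:122894822-122895071 and Apob at chr12:7977427-7977676. Capitals mark a GATA motif (AGATAA) or a CDX motif (TTTATNG) on either strand.
Muc2: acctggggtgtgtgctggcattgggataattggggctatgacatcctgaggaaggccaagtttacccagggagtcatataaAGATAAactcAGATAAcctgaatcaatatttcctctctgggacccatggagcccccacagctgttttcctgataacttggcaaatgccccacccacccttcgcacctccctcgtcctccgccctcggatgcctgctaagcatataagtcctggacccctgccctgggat
Fabp2: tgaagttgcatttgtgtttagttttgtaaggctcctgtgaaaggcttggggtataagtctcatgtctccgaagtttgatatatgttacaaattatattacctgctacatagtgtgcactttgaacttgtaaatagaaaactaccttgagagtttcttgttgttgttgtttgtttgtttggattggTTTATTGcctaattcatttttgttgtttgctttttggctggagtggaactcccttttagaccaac
Apob: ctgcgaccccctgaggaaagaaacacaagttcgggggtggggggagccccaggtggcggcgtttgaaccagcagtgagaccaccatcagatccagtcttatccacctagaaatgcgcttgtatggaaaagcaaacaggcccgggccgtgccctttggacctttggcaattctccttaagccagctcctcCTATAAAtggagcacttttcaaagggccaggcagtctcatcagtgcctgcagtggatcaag
The Muc2 stretch held 2 GATA matches and no CDX match, and the Fabp2 and Apob stretches held 1 CDX match each and no GATA match. The first GATA match in Muc2 overlaps the letters TATAAA, the TATA box motif, and so do the CDX matches in Apob and Krt20. The other genes called between colon and SI did not divide in this way. Of those higher in colon, Krt8 held a GATA match and Epcam a CDX match. Npc1l1, lower in colon, held neither. Over all 10 genes a CDX match was present in 4 (Epcam, Krt20, Fabp2, Apob) and a GATA match in 3 (Muc2, Krt8, Krt20), against 9.81% and 9.99% of 32851 RefSeq promoter windows of the same length. The HNF4 motif CAAAGTCCA was in none of the 10 and in 0.384% of all windows. These matches describe letters only.

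Total counts ran from 2394513 to 8350887 per library, with a median of 4364111, so that 3 counts in one library stand for 0.359 to 1.25 CPM (counts per 1000000 counts of the library). The sorts were checked against marker genes. All 8 pan-neuronal genes tested were higher and all 8 smooth muscle genes lower in neuronal than in non-neuronal nuclei over the 4 combinations of facility and segment. The mitochondrial share of counts was 0.42% to 15.99% in neuronal and 3.49% to 23.58% in non-neuronal libraries. An earlier analysis of these data set 6 libraries apart. Crick_SiPos 2 and Crick_SiNeg 2 have the highest mitochondrial share of their groups, at 15.99% and 23.58%. Bern_ColNeg 1 and 2 and Bern_SiNeg 1 hold more pan-neuronal counts than the rest of their groups, at 1517, 1216 and 635 CPM over 8 genes, and Crick_ColNeg 3 completes the 6. Genes detected above 0 numbered 15708 to 22533 in Bern libraries and 25789 to 35260 in Crick libraries.

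Which of the sorts holds the epithelial signal was the first question. All 9 genes tested were lower in neuronal than in non-neuronal nuclei over the 4 combinations of facility and segment, and 21.6% of all 21521 genes tested were lower in the same comparison. Krt20 and Cdx2 passed the filter on low counts only through non-neuronal libraries, where they were high, so that share is no even comparison for them. The median over the 9 genes was -4.25 on the log2 scale, against -0.01 over all genes. The mitochondrial share moved the same way: it was 0.42% to 0.6% in Bern_ColPos and 3.49% to 7.44% in Bern_ColNeg, 2.75% to 6.82% in Bern_SiPos and 11.07% to 12.91% in Bern_SiNeg, and 0.83% to 1.39% in Crick_ColPos and 4.75% to 10.19% in Crick_ColNeg. In Crick SI the ranges overlapped, at 2.76% to 15.99% in Crick_SiPos and 6.28% to 23.58% in Crick_SiNeg, and the part of this share in the result was not tested. In bulk nuclei, fewer epithelial nuclei and less epithelial RNA per nucleus cannot be told apart.

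Muc2, the goblet cell mucin, had the largest fall of the 9 over the 4 combinations (-6.80 ± 0.34, adjusted p = 2.99e-18). In Bern colon it had 9.50, 10.6, 6.92 and 14.2 CPM in the 4 neuronal libraries, against 1623, 11437, 2512 and 4845 CPM in the non-neuronal libraries. In Crick colon it had 22.7, 22.1, 20.6 and 28.1 CPM in neuronal libraries, against 1948, 3156, 6770 and 8511 CPM in non-neuronal libraries. The highest neuronal library of colon lay far below the lowest non-neuronal library at both facilities. In Bern SI the neuronal libraries had 9.79, 5.89, 7.52 and 21.4 CPM, against 270, 245, 341 and 703 CPM in the non-neuronal libraries. In Crick SI the neuronal libraries had 10.9, 10.7, 10.4 and 3.02 CPM, against 387, 208, 632 and 89.4 CPM in the non-neuronal libraries. The SI sorts did not overlap either. The neuronal mean was 0.202% of the non-neuronal mean in Bern colon, 2.86% in Bern SI, 0.459% in Crick colon and 2.66% in Crick SI. The fitted log2 change was -8.97 ± 0.75 (SE) in Bern colon, -5.20 ± 0.63 in Bern SI, -7.81 ± 0.71 in Crick colon and -5.21 ± 0.63 in Crick SI, and it passed in all 4 (largest adjusted p = 1.69e-07). In Bern SI the fitted changes of Npc1l1 (-7.21 ± 1.39, 0.000150) and Epcam (-5.57 ± 1.27, 0.00107) were larger than that of Muc2.

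**Figure D1:**
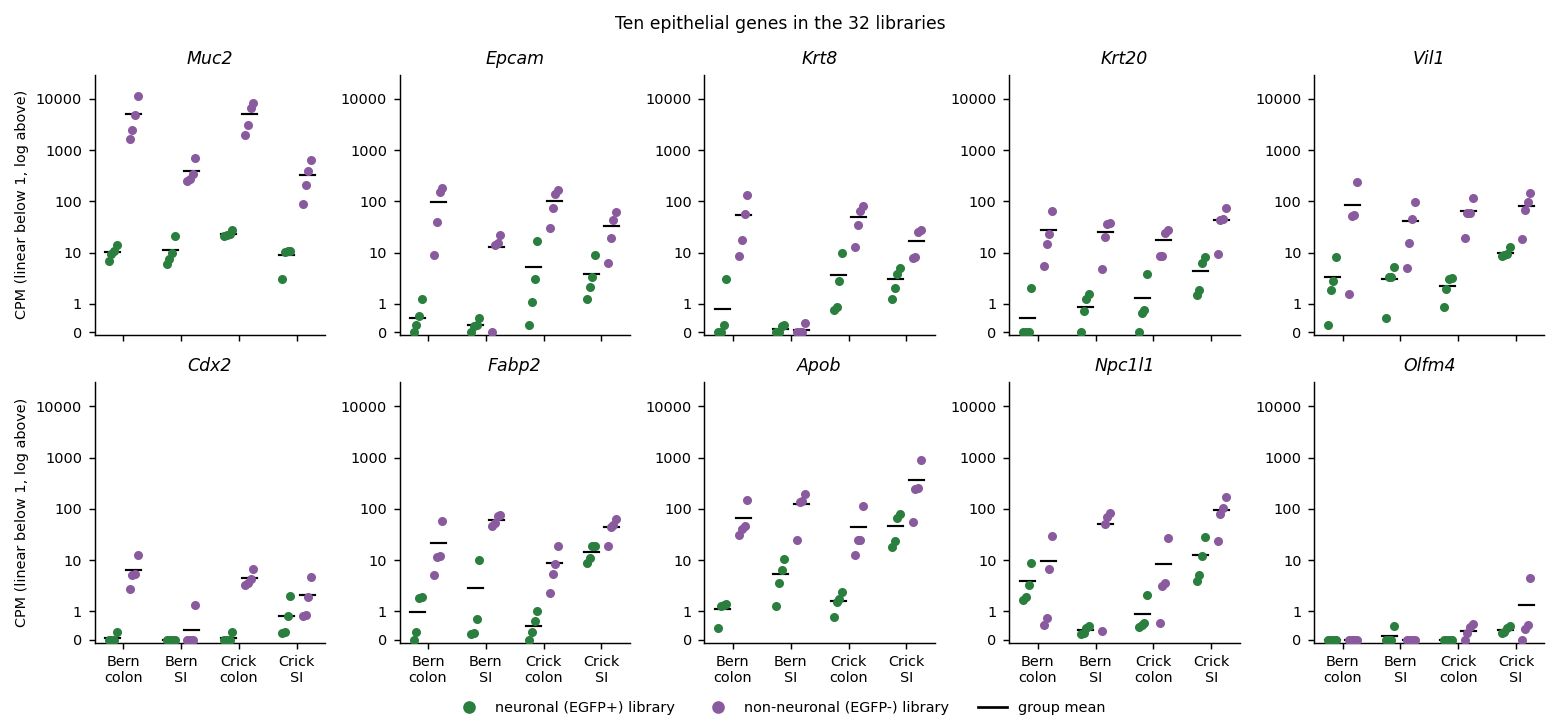
Level of each of the 10 epithelial genes in all 32 libraries, in CPM on an axis that is linear below 1 and logarithmic above. Each point is a library, drawn in order of its value within the group, and the black line is the mean of 4 libraries; neuronal (EGFP+) libraries stand left of non-neuronal (EGFP-) libraries. Muc2 reaches 11437 CPM in a Bern colon non-neuronal library, and Olfm4 does not exceed 4.38 CPM anywhere.

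The general epithelial genes followed. Epcam, the adhesion molecule, had 1.24, 0, 0.256 and 0.557 CPM in Bern colon neuronal libraries, against 8.98, 184, 38.9 and 153 CPM in non-neuronal libraries. In Crick colon it had 3.06, 1.1, 0.264 and 16.7 CPM in neuronal libraries, against 140, 29.8, 74.1 and 170 CPM in non-neuronal libraries. The sorts of colon were apart at both facilities, although Crick_ColPos 4 came closest. In Crick SI Epcam had 8.83, 3.30, 2.09 and 1.24 CPM in neuronal libraries, against 43.8, 19.4, 61.8 and 6.14 CPM in non-neuronal libraries, and these overlapped. In Bern SI it was at 0 to 0.492 CPM in neuronal libraries, against 0 to 21.9 CPM in non-neuronal libraries, where Bern_SiNeg 2 held no count. Epcam fell by 5.13 ± 0.58 on the log2 scale over the 4 combinations (adjusted p = 2.17e-09).

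Vil1, the microvillus protein, had 8.26, 1.90, 0.256 and 2.79 CPM in Bern colon neuronal libraries, against 1.56, 239, 53.8 and 51.6 CPM in non-neuronal libraries. Bern_ColNeg 1 lay inside the neuronal range. In Crick SI Vil1 had 8.83, 12.9, 8.57 and 9.19 CPM in neuronal libraries, against 95.3, 66.3, 143 and 18.1 CPM in non-neuronal libraries, without overlap. In Crick colon it had 3.06, 0.876, 3.17 and 1.90 CPM in neuronal libraries, against 59.6, 19.2, 59.4 and 117 CPM in non-neuronal libraries, again apart. In Bern SI it had 3.26, 5.24, 3.34 and 0.492 CPM in neuronal libraries, against 15.5, 99.1, 46.2 and 4.97 CPM in non-neuronal libraries, where Bern_SiNeg 4 reached into the neuronal range. Over the 4 combinations Vil1 fell by 4.18 ± 0.48 (adjusted p = 4.04e-09). Krt20, a keratin of differentiated intestinal cells, fell by 4.33 ± 0.55 (3.03e-08), and it was the only member besides Muc2 whose sorts did not overlap in any of the 4 combinations. Krt20 was at 0 in 3 of 4 Bern_ColPos libraries and at 2.05 CPM in Bern_ColPos 3, against 5.48 to 65.0 CPM in Bern_ColNeg. In Crick SI it had 8.15, 6.23, 1.88 and 1.51 CPM in neuronal libraries, against 45.6, 43.7, 72.9 and 9.34 CPM in non-neuronal libraries. The Bern colon log2 change of Krt20 was -5.52 and became -9.89 without Bern_ColPos 3, which leaves the neuronal arm at 0.

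Krt8, a keratin of simple epithelia, fell by 2.91 ± 0.96 over the 4 combinations (adjusted p = 0.0121), less than any of the other members. In Bern colon it had 0, 2.98, 0.256 and 0 CPM in neuronal libraries, against 17.5, 131, 8.61 and 57.4 CPM in non-neuronal libraries. Krt8 was nearly absent from Bern SI in both sorts: 2 counts in all 4 neuronal libraries together and 1 count in all 4 non-neuronal libraries. Without Bern_SiNeg 2, which holds that count, the non-neuronal arm is at 0 and Krt8 lost its call (adjusted p = 1). In Crick SI it had 4.98, 2.04, 1.25 and 3.84 CPM in neuronal libraries, against 27.6, 8.22, 24.7 and 7.67 CPM in non-neuronal libraries. Those libraries did not overlap, but the change missed the threshold (-2.51 ± 0.93, adjusted p = 0.0803), which DESeq2 put below it (-2.58, 0.0301). Krt8 has a pseudogene, Krt8-ps, and shares its locus with Gm36026 on the opposite strand. Its expected counts were fractional in 6 libraries, so reads may be split between copies.

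Cdx2, the identity factor, was the rarest member after Olfm4. It had 1 count over the 4 Bern_ColPos libraries, against 106 over the 4 Bern_ColNeg libraries, which is 96.3-fold less per total count (95% exact binomial interval 16.9 to 3838, counting error only). Crick_ColPos likewise held 1 count, against 108 in Crick_ColNeg, or 91.6-fold less (16.1 to 3651). In Bern SI Cdx2 had 0 counts in neuronal libraries and 6 in non-neuronal libraries, all in Bern_SiNeg 4. In Crick SI it had 0.226, 1.95, 0.836 and 0.274 CPM in neuronal libraries, against 4.60, 1.87, 0.876 and 0.837 CPM in non-neuronal libraries, which overlap. Cdx2 passed over the 4 combinations (-4.26 ± 0.73, adjusted p = 1.11e-05), a value that depends on how groups at 0 are fitted. The call was lost without Bern_SiNeg 4 (adjusted p = 1), when both Bern SI sorts are at 0. In Bern SI alone Cdx2 did not pass (-4.02 ± 1.67, 0.0652) and did pass without Bern_SiNeg 1, 2 or 3 (0.0479 to 0.0498).

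The lipid genes Apob, Fabp2 and Npc1l1 fell over the 4 combinations, with log2 changes of -4.50 ± 0.41, -3.77 ± 0.49 and -3.65 ± 0.58 (adjusted p = 1.54e-11, 4.97e-08 and 2.23e-06), and their sorts overlapped in Crick SI. Apob had 65.9, 78.0, 23.4 and 18.3 CPM in Crick SI neuronal libraries, against 253, 243, 897 and 56.1 CPM in non-neuronal libraries. Fabp2 had 19.0, 18.8, 8.78 and 10.8 CPM in Crick SI neuronal libraries, against 44.7, 49.3, 64.2 and 18.5 CPM in non-neuronal libraries. Npc1l1 had 11.8, 28.6, 5.02 and 3.98 CPM in Crick SI neuronal libraries, against 78.2, 102, 170 and 23.3 CPM in non-neuronal libraries. In each of the 3 genes Crick_SiNeg 4 was the lowest non-neuronal library and lay inside the neuronal range. The neuronal mean reached 12.8% of the non-neuronal mean for Apob, 32.5% for Fabp2 and 13.2% for Npc1l1 in Crick SI, against 4.35%, 4.56% and 0.679% in Bern SI. Apob passed in Crick SI (-2.85 ± 0.73, adjusted p = 0.00648), and it lost the call without Crick_SiNeg 3 (0.0809). Fabp2 (-1.66 ± 0.86, 0.271) and Npc1l1 (-2.82 ± 1.05, 0.0813) did not pass there, although Npc1l1 passed without Crick_SiPos 2 (-3.95, 0.0311) or Bern_SiNeg 2 (0.0474) and without the 6 libraries set apart (-3.67, 0.0459). DESeq2 called it too (-2.87, 0.0373), as did edgeR with no genes filtered out (-2.76, 0.00357).

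In Bern SI Apob had 1.26, 3.49, 6.26 and 10.6 CPM in neuronal libraries, against 142, 25.0, 193 and 136 CPM in non-neuronal libraries. Fabp2 had 0.251, 0.218, 10.0 and 0.738 CPM in Bern SI neuronal libraries, against 45.6, 73.4, 75.2 and 51.9 CPM in non-neuronal libraries. Bern_SiPos 3 held nearly all of that neuronal signal: the log2 change of -4.80 ± 1.01 (adjusted p = 0.000431) became -7.26 without it. In colon Apob stayed at 0.413 to 1.39 CPM in Bern neuronal libraries, against 30.8 to 147 CPM in non-neuronal libraries, and at 0.792 to 2.34 CPM in Crick neuronal libraries, against 12.5 to 115 CPM in non-neuronal libraries. Npc1l1 was the exception among the lipid genes in Bern colon. It had 1.65, 1.90, 3.33 and 8.64 CPM in neuronal libraries, against 0.781, 30.1, 0.522 and 6.80 CPM in non-neuronal libraries, and the ranges overlapped (-1.32 ± 1.04, adjusted p = 0.387). Without Bern_ColNeg 2 the sign turned (0.54, 0.777). Fabp2 shares its locus with the antisense gene 4933405D12Rik and Vil1 with Usp37 on the opposite strand, and the sources used here do not say whether counting used strand.

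By facility and segment, 8 of 9 genes tested fell in Bern colon (14.9% of all genes fell), 7 in Bern SI (12.9%), 9 in Crick colon (11.2%) and 5 in Crick SI (5.06%). Members whose neuronal libraries all lay below all non-neuronal libraries numbered 7 in Bern colon, 4 in Bern SI, 8 in Crick colon and 4 in Crick SI, and none lay all above. The same pattern was found in 9.23%, 5.50%, 19.5% and 12.6% of all genes tested. In Crick colon the call of Npc1l1 (-3.26 ± 1.16, adjusted p = 0.0431) was lost without any of Crick_ColPos 1, 2 or 4, Crick_ColNeg 1 or Crick_SiNeg 1, 2 or 3 (0.0522 to 0.480), and without Crick_ColNeg 1 its log2 change was -1.46. In Crick SI the call of Epcam (-3.08 ± 1.00, 0.0362) was lost without Crick_SiPos 2, 3 or 4 or Crick_SiNeg 1, 2 or 3 (0.0552 to 0.133). There the call of Krt20 (-3.26 ± 1.02, 0.0291) was lost without Crick_SiPos 3 or 4 or Crick_SiNeg 1, 2 or 3 (0.0579 to 0.113). The call of Vil1 (-3.03 ± 0.90, 0.0212) was lost without Crick_SiPos 1, 3 or 4 or Crick_SiNeg 3 (0.0667 to 0.0737). Without the 6 libraries set apart, Epcam (0.0961) and Krt20 (0.0879) also missed the threshold in Crick SI. Leaving out Crick_SiNeg 3 took the Crick SI count to 1 gene, Crick_SiPos 3 or 4 to 2 and Crick_SiNeg 1 or 2 to 3.

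**Figure D2:**
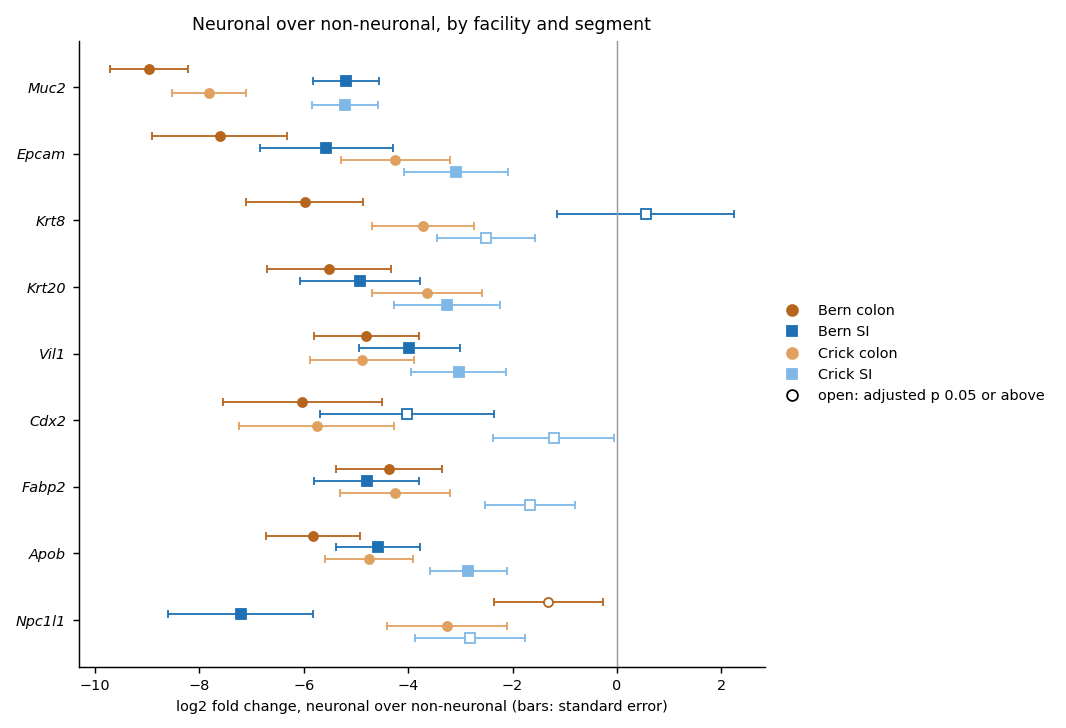
Log2 fold change of neuronal over non-neuronal nuclei for the 9 genes tested, in Bern colon, Bern SI, Crick colon and Crick SI, with standard errors as bars. Filled symbols have an adjusted p below 0.05. Muc2 in Bern colon lies farthest left, at -8.97, and Krt8 in Bern SI, which rests on 3 counts in all, is the only positive value, at 0.55.

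What remained of these genes in the neuronal libraries differed in makeup from the non-neuronal libraries. The 10 genes summed to 52.4 to 163 CPM in Crick SI neuronal libraries and to 15.3 to 63.4 CPM in the other 3 neuronal groups. Muc2 made up 5.76% to 16.7% of that sum in Crick_SiPos, against 28.1% to 39.5% in Crick_SiNeg. In Bern_ColPos it made up 42.9% to 51.0%, against 93.0% to 95.2% in Bern_ColNeg. In Crick_ColPos it made up 44.3% to 77.7%, against 80.5% to 97.1% in Crick_ColNeg. Muc2 was thus the smaller part of the sum in neuronal libraries in these 3 combinations, while in Bern SI the ranges overlapped, at 26.1% to 63.9% in Bern_SiPos and 43.3% to 70.9% in Bern_SiNeg. For comparison, the neuronal mean of the smooth muscle myosin gene Myh11 was 4.54%, 4.11%, 5.18% and 8.37% of its non-neuronal mean in Bern colon, Bern SI, Crick colon and Crick SI.

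Per kilobase of exon the order of the genes within a group could be set side by side. Muc2 led in both colon non-neuronal groups, with 716 ± 622 CPM per kb in Bern and 715 ± 430 CPM per kb in Crick (SD, n = 4), and Epcam came next with 43.8 and 47.1 CPM per kb. In the SI non-neuronal groups Fabp2 and Muc2 were level: 63.8 ± 15.5 CPM per kb for Fabp2 and 54.7 ± 29.8 for Muc2 in Bern, and 45.8 ± 19.7 for Fabp2 and 46.2 ± 33.1 for Muc2 in Crick. These pairs did not differ beyond their spread. In the Crick SI neuronal group Fabp2 led with 14.9 ± 5.51 CPM per kb and Muc2 stood at 1.23.

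**Figure D3:**
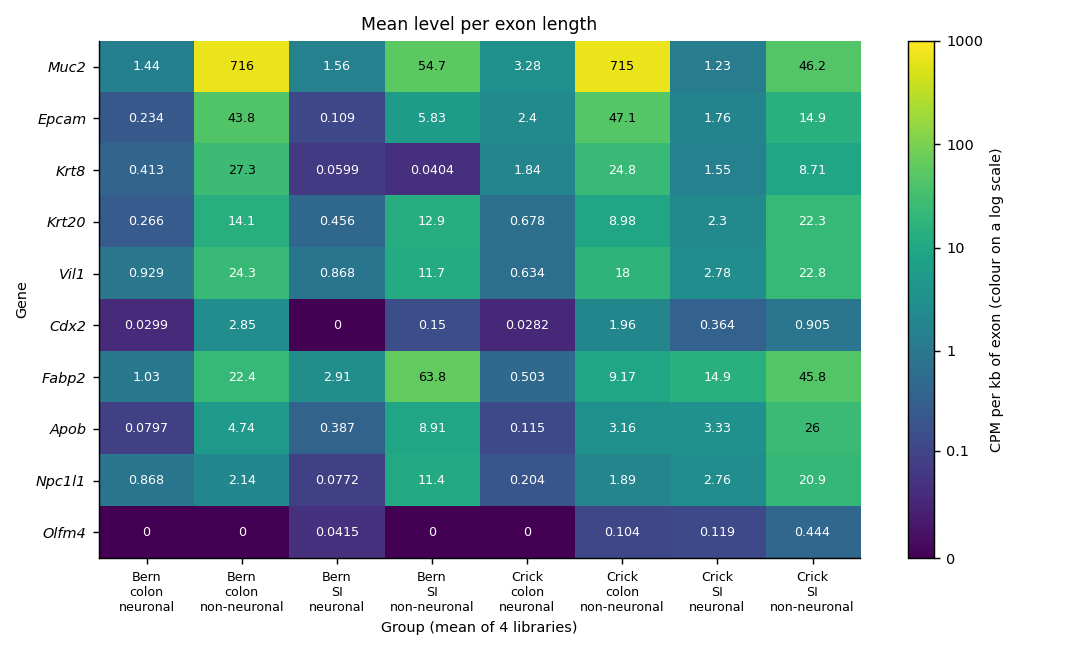
Mean level of the 10 genes in the 8 groups, in CPM per kilobase of merged exon length, with the colour on a log scale and each cell giving the mean of 4 libraries. Within each facility and segment the neuronal group stands left of the non-neuronal group. The brightest cells are Muc2 in the colon non-neuronal groups, at 716 and 715 CPM per kb, and Olfm4 is at 0 in 4 groups.

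Whether the epithelial signal of the non-neuronal nuclei differs between segments was asked by setting colon against SI. It did for 6 of the 9 genes over both facilities: Muc2, Krt8 and Epcam were higher in colon and Fabp2, Apob and Npc1l1 lower, against 5.79% of 19164 genes higher and 3.54% lower. General epithelial genes summed to 201 to 2031 CPM in Bern_ColNeg and 121 to 297 CPM in Bern_SiNeg. In Crick they summed to 272 to 1600 CPM in colon and 132 to 446 CPM in SI. For genes higher in colon, a larger epithelial share and a trait of the segment cannot be told apart. Muc2 averaged 5104 ± 4435 CPM in Bern colon and 390 ± 213 CPM in Bern SI, and 5096 ± 3063 CPM in Crick colon and 329 ± 236 CPM in Crick SI (SD, n = 4 each). All colon libraries lay above all SI libraries at each facility, as in 7.61% of all genes in Bern and 8.87% in Crick, and the log2 change over both was 3.54 ± 0.44 (adjusted p = 3.37e-05).

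The 3 lipid genes went the other way. Apob averaged 66.1 ± 54.5 CPM in Bern colon and 124 ± 70.9 CPM in Bern SI, and 44.0 ± 47.6 CPM in Crick colon and 362 ± 368 CPM in Crick SI (SD, n = 4 each), with overlap at both facilities. Its log2 change over both facilities was -2.24 ± 0.52 (adjusted p = 0.00956). Fabp2 had 5.07, 57.4, 12.3 and 11.6 CPM in Bern colon, against 45.6, 73.4, 75.2 and 51.9 CPM in Bern SI. It had 19.3, 5.40, 2.23 and 8.50 CPM in Crick colon, against 44.7, 49.3, 64.2 and 18.5 CPM in Crick SI. One colon library at each facility, Bern_ColNeg 2 and Crick_ColNeg 1, reached into the SI range. The log2 change of Fabp2 was -2.25 ± 0.51 (0.00785) and that of Npc1l1 -3.23 ± 0.84 (0.0180).

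Npc1l1 had 0.781, 30.1, 0.522 and 6.80 CPM in Bern colon, against 70.5, 0.316, 81.3 and 51.0 CPM in Bern SI. Bern_SiNeg 2 was at 1 count for this gene, whereas its Fabp2 level of 73.4 CPM was the second highest of all libraries. In Crick colon Npc1l1 had 26.4, 3.54, 3.12 and 0.599 CPM, against 78.2, 102, 170 and 23.3 CPM in Crick SI. Without the 6 libraries set apart, the calls of Apob (-2.35, adjusted p = 0.0660), Npc1l1 (-3.56, 0.0923) and Epcam (2.09, 0.151) were lost, while Muc2 (3.17, 0.00405), Krt8 (4.56, 0.0101) and Fabp2 (-2.43, 0.0171) still passed.

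Krt8 averaged 53.5 CPM in Bern colon and 0.0791 CPM in Bern SI, and 48.5 CPM in Crick colon and 17.1 CPM in Crick SI. Its log2 change over both facilities was 5.04 ± 0.73 (adjusted p = 0.000178), and it came from Bern (8.75 ± 1.24, 0.000278) more than from Crick (1.33 ± 0.78, 1.00). By counts the Bern ratio was 908 against 1, or 865-fold per total count (95% exact binomial interval 155 to 3.42e+04, counting error only). Epcam passed narrowly (2.01 ± 0.63, adjusted p = 0.0479), and it lost the call without any 1 of Bern_ColNeg 2 or 4, Bern_SiNeg 1 or 3, Crick_ColNeg 1, 3 or 4 or Crick_SiNeg 1 to 4 (0.0578 to 0.0961). Krt20 (-0.89 ± 0.54, 0.331), Vil1 (0.02 ± 0.64, 0.993) and Cdx2 (2.25 ± 0.85, 0.10) did not pass. The 95% interval of the Vil1 change ran from -1.23 to 1.28, which leaves room for a change in either direction. Cdx2 passed by DESeq2 (2.35, 0.00830) and without Bern_SiNeg 4 (4.32, 0.0124), which held all of its Bern SI counts.

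Within one facility fewer genes passed. In Bern Muc2 (3.32 ± 0.62, adjusted p = 0.00353) and Krt8 were higher, against 6.51% of all genes higher. In Crick Muc2 alone was called (3.76 ± 0.63, 0.00641), where 0.0991% of all genes were higher and 0.157% lower. Every member tested but Vil1 had the same sign at both facilities, and 6 of 9 members in Bern and 4 of 9 in Crick had an unadjusted p below 0.05. The share of all genes with such a p was not counted, so these numbers have nothing to be set against. Without the 6 libraries set apart, Muc2 missed the threshold in Bern (2.69, 0.0501) and in Crick (3.64, 0.0883). In Bern, Fabp2 passed without Bern_ColNeg 2 (-3.10, 0.0175), as did Npc1l1 (-4.52, 0.0439), Epcam passed without Bern_ColNeg 1 (0.0426), and Cdx2 passed without Bern_SiNeg 4 (7.80, 0.0133). In Crick, Apob passed without Crick_ColNeg 1 (-4.25, 0.0296) and without Crick_SiNeg 4 (0.0456). DESeq2 also called Epcam (2.66, 0.0384) and Cdx2 (3.79, 0.00516) in Bern and Apob (-3.16, 0.0206) in Crick.

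**Figure D4:**
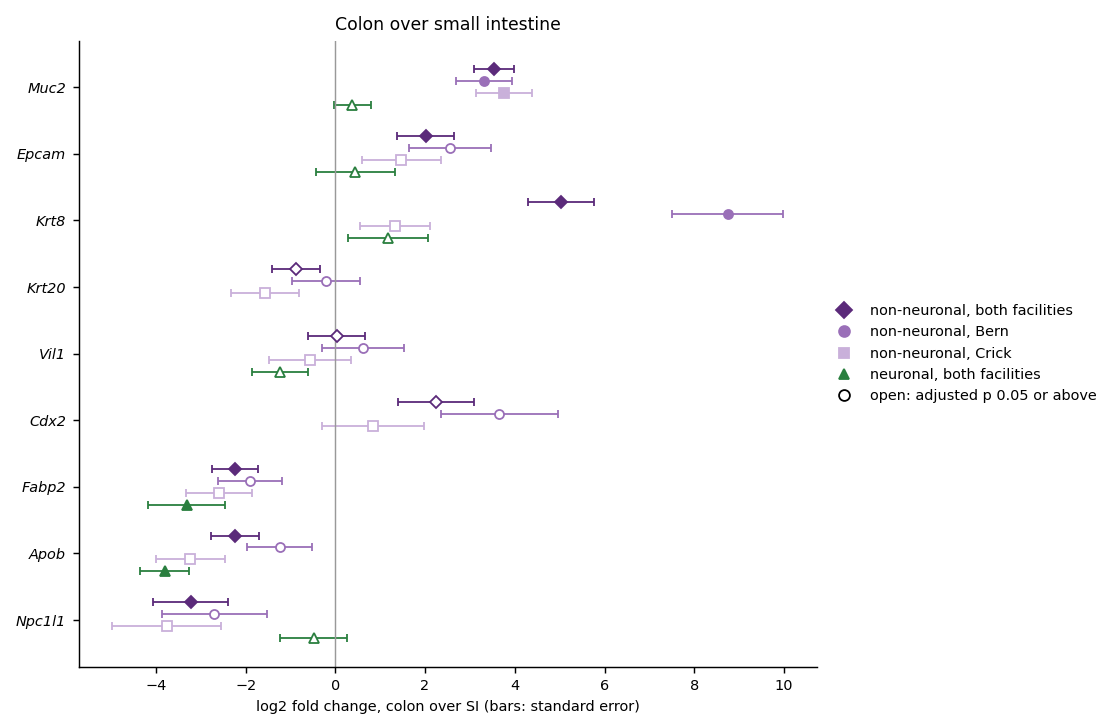
Log2 fold change of colon over SI, with standard errors as bars, for the 9 genes: non-neuronal nuclei over both facilities, in Bern and in Crick, and neuronal nuclei over both facilities. Filled symbols have an adjusted p below 0.05, and Krt20 and Cdx2 were not tested in neuronal nuclei. Muc2 lies at 3.32 to 3.76 in non-neuronal nuclei and at 0.38 in neuronal nuclei, while Fabp2 and Apob lie left of 0 in all 4.

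Other epithelial genes were compared between the segments in non-neuronal nuclei too. Of 11 further goblet cell genes tested, 9 were higher in colon and none lower, including Agr2 (3.97 ± 0.82, adjusted p = 0.00410), which folds mucin, Fcgbp (2.10 ± 0.49, 0.00952), a mucus protein, Clca1 (2.69 ± 0.58, 0.00555) and Zg16 (2.95 ± 0.64, 0.00593). The list's median was 3.07, against 0.02 over all genes. Of all genes tested 5.79% were higher in colon and 3.54% lower. Through which segment the genes of this list and of those below passed the filter on low counts was not examined. For genes that passed it through 1 segment alone these shares are no even comparison. Of 16 SI enterocyte genes, 5 were lower in colon and none higher: the disaccharidase gene Sis (-3.01 ± 0.62, 0.00395), the peptidase gene Anpep (-2.34 ± 0.62, 0.0201), Apoa1 (-3.81 ± 0.95, 0.0143), and also Alpi (-3.59 ± 0.80, 0.00665) and Lct (-4.55 ± 1.17, 0.0168), which are named after their values were seen, to complete the 5. Mgam, another disaccharidase gene, did not pass (-0.86 ± 0.50, 0.312). Of 10 colonocyte genes none passed in either direction under edgeR, and 4 had an unadjusted p below 0.05. The chloride-bicarbonate exchanger gene Slc26a3 stood at 1.64 ± 0.61 (0.0938) and Car1 at 1.93 ± 0.94 (0.210). Of 19 general epithelial genes 6 were higher, among them Cdh1 (2.74 ± 0.76, 0.0248) and Tmprss2 (3.79 ± 0.71, 0.00194), and none lower. By facility the counts were smaller. In Bern 6 goblet cell, 5 general epithelial, 1 crypt and 1 colonocyte gene (Aqp8, log2 change 6.37, adjusted p = 0.0418, named after its value was seen) were higher and 0 of 16 enterocyte genes passed, 7 of them with an unadjusted p below 0.05. In Crick 0 genes of these 5 lists passed under edgeR, with an unadjusted p below 0.05 for 8 of 11 goblet cell, 9 of 16 enterocyte, 3 of 19 general epithelial, 1 of 10 colonocyte and 2 of 7 crypt genes. These counts by unadjusted p have no share of all genes beside them and show no excess. By edgeR's adjusted p, 6.51% of all genes were higher in colon in Bern. In Crick 0.0991% were higher and 0.157% lower.

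Crypt genes included the proliferation genes Mki67 (2.46 ± 0.71, adjusted p = 0.0309) and Top2a (3.14 ± 0.82, 0.0182), which were higher in colon with Prom1 (1.78 ± 0.54, 0.0391), 3 of 7 tested in all. Other cell types of the peel moved between segments too. Of 6 mesothelial genes 2 were lower in colon, among them Muc16 (-2.28 ± 0.34, 0.000274). The pan-neuronal genes Elavl4 (2.26 ± 0.54, 0.0107), Prph (2.87 ± 0.51, 0.00147) and Ret (2.54 ± 0.63, 0.0131) were higher, 3 of 8 in all, and the smooth muscle genes Myh11 (-0.99 ± 0.27, 0.0237) and Mylk (-1.39 ± 0.22, 0.000448) lower, 2 of 8. The pan-neuronal genes summed to 692 to 1517 CPM in Bern_ColNeg and 11.7 to 635 CPM in Bern_SiNeg, and to 131 to 267 CPM in Crick_ColNeg and 38.3 to 140 CPM in Crick_SiNeg. RNA quality measures differed as well. The mitochondrial share was 3.49% to 7.44% in Bern colon and 11.07% to 12.91% in Bern SI, and genes detected numbered 19758 to 20987 in Bern colon and 15708 to 18411 in Bern SI, without overlap. In Crick both overlapped, at 4.75% to 10.19% in colon and 6.28% to 23.58% in SI, and 27375 to 35260 genes in colon and 27402 to 33769 in SI. The part of these in the epithelial result was not tested.

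In neuronal nuclei the colon and SI were compared for the 7 members that passed the filter there. Fabp2 (-3.31 ± 0.86, adjusted p = 0.0225) and Apob (-3.81 ± 0.55, 0.000104) were lower in colon and none was higher, against 3.54% of 17419 genes lower and 1.97% higher. Fabp2 did not exceed 1.89 CPM, nor Apob 2.34 CPM, in any colon neuronal library. Both passed the filter on low counts through SI libraries, where they were high. Their direction was thus not open, and the shares of all genes are no even comparison for them. Apob had 0.413, 1.35, 1.28 and 1.39 CPM in Bern colon, against 1.26, 3.49, 6.26 and 10.6 CPM in Bern SI. It had 1.53, 1.75, 0.792 and 2.34 CPM in Crick colon, against 65.9, 78.0, 23.4 and 18.3 CPM in Crick SI. At Crick the segments lay far apart, and at Bern Bern_SiPos 1 fell inside the colon range. Fabp2 lost its call without Bern_SiPos 3 (-2.06, 0.154), Crick_ColPos 3 (0.0569), Crick_SiPos 1 (0.0531) or Crick_SiPos 2 (0.0648), and without the 6 libraries set apart (-3.11, 0.0648).

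Muc2 did not pass in neuronal nuclei over both facilities (0.38 ± 0.42, adjusted p = 0.692), which were unlike each other. In Crick it ran from 20.6 to 28.1 CPM in colon and from 3.02 to 10.9 CPM in SI, while in Bern the segments overlapped. The segments of neuronal nuclei were not tested by facility. The means of Muc2 were 10.3 ± 3.02 CPM in Bern colon and 11.1 ± 7.02 CPM in Bern SI, and 23.4 ± 3.28 CPM in Crick colon and 8.77 ± 3.84 CPM in Crick SI (SD, n = 4 each). Npc1l1 went in opposite directions by facility, with 1.65 to 8.64 CPM in Bern colon against 0.218 to 0.492 CPM in Bern SI, and 0.438 to 2.11 CPM in Crick colon against 3.98 to 28.6 CPM in Crick SI. Among 11 SI enterocyte genes tested in neuronal nuclei, 7 were lower in colon, including Apoa1 (-5.59 ± 0.83, 0.000138), Anpep (-3.80 ± 0.69, 0.00130), Sis (-3.09 ± 0.69, 0.00827) and Mgam (-2.30 ± 0.61, 0.0263), with a list median of -3.09. Through which segment these genes passed the filter on low counts was not examined. None of 4 goblet cell genes tested there passed under edgeR, and 0 had an unadjusted p below 0.05. The smooth muscle genes Myh11 (-1.04 ± 0.27, 0.0239), Smtn (-1.88 ± 0.36, 0.00198) and Mylk (-1.57 ± 0.27, 0.000725) and the mesothelial gene Muc16 (-1.86 ± 0.47, 0.0195) were lower in colon in the same libraries. Smooth muscle genes summed to 459 to 1135 CPM in Bern_ColPos and 544 to 1275 CPM in Bern_SiPos, and to 467 to 554 CPM in Crick_ColPos and 565 to 1223 CPM in Crick_SiPos. The mitochondrial share was 0.42% to 0.6% in Bern_ColPos and 2.75% to 6.82% in Bern_SiPos, and 0.83% to 1.39% in Crick_ColPos and 2.76% to 15.99% in Crick_SiPos, without overlap at either facility. The part of these in the result for Fabp2, Apob and the enterocyte genes was not tested.

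The difference between segments was itself compared between sorts. Muc2 was called (-3.19 ± 0.55, adjusted p = 0.000348), so its neuronal to non-neuronal ratio was smaller in colon than in SI. The median of all genes in this comparison was -0.22, and 5.39% of genes were called in the same direction. No other member was called. Krt8 stood at -3.87 ± 1.34 (0.0766) and passed by DESeq2 (-3.88, 0.0139), with no genes filtered out (0.0331) and without Bern_ColPos 2 (0.0171) or Crick_ColPos 4 (0.0337). Npc1l1 had the opposite sign (2.73 ± 1.12, 0.153) and passed without a filter (0.0167) and without Bern_ColNeg 2 (0.0390) or Crick_ColNeg 1 (0.0444).

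The facilities were compared last. Their libraries differed in depth and in genes detected: total counts ran from 2394513 to 4618395 in Bern and from 3788206 to 8350887 in Crick. Genes detected did not overlap, with 15708 to 20987 in Bern and 27375 to 35260 in Crick non-neuronal libraries, and 17715 to 22533 in Bern and 25789 to 34286 in Crick neuronal libraries. The part of either in the results between facilities was not tested. In non-neuronal nuclei Krt8 was the only member called, lower in Bern than in Crick over both segments (-3.61 ± 0.72, adjusted p = 0.00310), where 4.94% of all genes were lower and 4.35% higher. This came from SI (-7.32 ± 1.21, 0.00362), where 2.6% of all genes were lower in Bern. It had 0, 0.316, 0 and 0 CPM in the Bern libraries, against 27.6, 8.22, 24.7 and 7.67 CPM in the Crick libraries. By counts the ratio was 1 against 366, which is 227-fold less per total count (95% exact binomial interval 40.4 to 8975, counting error only). In colon Krt8 had 17.5, 131, 8.61 and 57.4 CPM in Bern, against 80.9, 12.8, 34.7 and 65.5 CPM in Crick, which overlap. None of the 9 members was called in colon under edgeR, by DESeq2 or at an unadjusted p below 0.05 (0 of 9), against 1.07% of all genes called. The difference of the segment effect between facilities was not called for Krt8 (7.42 ± 1.45, 0.115), and 0% of 19164 genes were called in that comparison. Krt8 was 1 member of 9 with an unadjusted p below 0.05 there, and DESeq2 called it (7.56, 0.000711).

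In neuronal nuclei Epcam (-3.62 ± 0.92, adjusted p = 0.0179), Krt8 (-3.26 ± 0.93, 0.0337) and Apob (-1.87 ± 0.52, 0.0303) were lower in Bern than in Crick, 3 of 7 members tested, against 2.76% of all genes lower and 4.96% higher. Epcam did not exceed 1.24 CPM in Bern and passed the filter on low counts through Crick libraries. So did Krt8, apart from Bern_ColPos 2 at 2.98 CPM. The direction of both was thus not open, and the shares of all genes are no even comparison for them. Epcam had 0.251, 0.218, 0 and 0.492 CPM in Bern SI, against 8.83, 3.30, 2.09 and 1.24 CPM in Crick SI. It had 1.24, 0, 0.256 and 0.557 CPM in Bern colon, against 3.06, 1.1, 0.264 and 16.7 CPM in Crick colon. The SI libraries were apart and the colon libraries overlapped. Each of these calls was lost in some of the fits with a library left out. Epcam lost it without Crick_ColPos 4 (0.0609) or Crick_SiPos 1 (0.0559). Krt8 lost it without Bern_ColPos 3, any of Bern_SiPos 1 to 4, Crick_ColPos 1 or 4 or Crick_SiPos 1 or 4 (0.0504 to 0.0853). Apob lost it without Bern_SiPos 2, Crick_ColPos 1, 2 or 4 or Crick_SiPos 1 or 2 (0.0549 to 0.0925), and without the 6 libraries set apart (0.0925). Among general epithelial genes in the same libraries Cdh1 was lower in Bern (-4.46 ± 0.97, 0.00651), 1 of 7 tested. The sort difference was called as different between facilities for none of the 9 members under edgeR or by DESeq2, against 0.204% of all genes, and 1 had an unadjusted p below 0.05.

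Olfm4, the crypt base marker, was close to absent. It had 0 counts in all libraries of Bern_ColPos, Bern_ColNeg, Bern_SiNeg and Crick_ColPos, 2 in Bern_SiPos, 6 in Crick_ColNeg, 9 in Crick_SiPos and 25 in Crick_SiNeg. Crick_SiNeg 3 alone held 20 of the 25 counts, at 4.38 CPM. Its locus overlaps the lincRNA gene Gm6999 on the same strand, and no test was run on it.

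The libraries of a non-neuronal group did not carry equal amounts of these genes. Bern_ColNeg 2 was the highest of its group for all 9 members detected, with 12302 CPM over the 10 genes, against 1705 to 5199 CPM in the other 3. Crick_SiNeg 3 was the highest of its group for 8 of 10 members, with 2071 CPM over the 10 genes, and Crick_SiNeg 4 was the lowest for 10 of 10, with 229 CPM. Crick_ColNeg was split: Crick_ColNeg 4 was highest for Muc2, Epcam, Vil1 and Cdx2, and Crick_ColNeg 1 for Krt8, Krt20, Fabp2, Apob and Npc1l1. In Bern_SiNeg no library led throughout. Bern_SiNeg 2 combined 99.1 CPM of Vil1 and 73.4 CPM of Fabp2 with 0 CPM of Epcam and 0.316 CPM of Npc1l1.

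Genes whose level most resembled that of Muc2 over the 16 non-neuronal libraries, by Pearson's r of log2(CPM + 1) among 11918 genes with a mean of at least 5 CPM, were Oit1 (0.94), Noxa1 (0.94), Stra6l (0.93), Klk1 (0.93), Glt1d1 (0.93) and Ern2 (0.91). For Fabp2 they were Abcc2 (0.86), Tm6sf1 (0.82), Frem1 (0.82), Ccdc9b (0.81), Gzma (0.81) and Tcim (0.80). These values describe 16 libraries that share group, segment and depth, and carry no test. Gzma, a granule protease of intraepithelial lymphocytes, was also lower in colon than in SI non-neuronal nuclei (-3.43 ± 0.83, adjusted p = 0.0117).

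Other epithelial, immune and mesothelial genes were counted in the same sort comparison. Of 11 further goblet cell genes tested over the 4 combinations 11 fell, of 19 general epithelial genes 16, of 16 SI enterocyte genes 14, of 10 colonocyte genes 9 and of 7 crypt genes 5, and none of these rose. In the same comparison 21.6% of all genes fell. Fewer goblet cell, general epithelial and SI enterocyte genes passed the filter on low counts among neuronal libraries alone. The others passed it here with the help of non-neuronal libraries. Their direction was thus not fully open, and the shares of all genes are no even comparison for them. Colonocyte and crypt genes were not examined for this. In Bern colon 11, 16, 8, 8 and 7 genes of these lists, in that order, fell and none rose. In Bern SI 4, 8, 7, 6 and 4 fell, while Rab25 (6.55 ± 2.31, adjusted p = 0.0302), Guca2b (5.88 ± 1.99, 0.0261) and Prom1 (2.15 ± 0.70, 0.0184) rose, of which Rab25 and Guca2b are named after their values were seen. Rab25 and Guca2b averaged only 2.28 and 1.60 CPM over the 32 libraries. Whether single libraries carry their rises was not examined. In Crick colon 10, 18, 6, 5 and 6 fell and in Crick SI 4, 4, 3, 3 and 1, and none rose. Of all genes 14.9% fell in Bern colon, 12.9% in Bern SI, 11.2% in Crick colon and 5.06% in Crick SI. Over the 4 combinations Zg16 (-6.70 ± 0.56, adjusted p = 1.56e-12), Slc26a3 (-6.08 ± 0.56, 1.68e-11), Sis (-5.08 ± 0.47, 2.42e-11) and Mki67 (-4.93 ± 0.59, 8.69e-09) are examples, and Lgals4 fell less (-2.24 ± 0.40, 1.49e-05). The mucosal immune genes Igkc (-6.75 ± 0.84, 5.24e-08) and Igha (-4.70 ± 0.73, 2.12e-06) fell, in 5 of 6 genes tested, as did all 6 mesothelial genes, with Muc16 at -6.68 ± 0.31 (6.30e-19). The 6 mesothelial genes summed to 3.70 to 27.7 CPM in neuronal libraries and 71.6 to 2425 CPM in non-neuronal libraries. Of 3 Paneth cell genes tested 2 fell, Lyz1 (-4.13 ± 0.96, 0.000558) and Defa24 (-4.98 ± 1.05, 0.000268). Of 6 enteroendocrine genes 3 rose and 1 fell, and of 4 tuft cell genes 2 rose and 1 fell. The share of all genes that rose is not given here, so counts of genes that rose have nothing to be set against. Chga (2.82 ± 0.44, 1.29e-06) and Chgb (1.76 ± 0.38, 0.000235), secretory granule genes that neurons also express, rose, while Tph1, the serotonin synthesis gene of enterochromaffin cells, fell (-4.29 ± 0.88, 0.000119). Dclk1 (2.35 ± 0.28, 6.11e-09) and Avil (1.69 ± 0.43, 0.00133) rose, while the tuft cell channel gene Trpm5 fell (-3.94 ± 0.89, 0.000384). Of 2 pancreatic acinar genes tested Cela1 fell (-1.92 ± 0.53, 0.00293).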

How the data were processed

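Nuclear RNA was amplified with NuGEN Ovation RNA-Seq V2, made into libraries with Ovation Ultralow V2 and sequenced single-end on a HiSeq4000, per the labels' protocols. The authors deposited expected counts per gene; the submitters' processing notes name STAR 2.5.2, RSEM 1.3.0, DESeq2 1.10.1 and GRCm38. Whether counting used strand is not given in the sources used here.

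The deposited expected counts were rounded for edgeR 4.0.16 (R 4.3.3) with TMM scaling, filterByExpr and the quasi-likelihood test; an adjusted p is Benjamini-Hochberg over all genes fitted, called below 0.05. Sorts were compared in 32 libraries, segments and facilities within a sort. SE is the log2 change over the root of F. CPM uses raw totals. Symbols, loci and exon lengths come from GENCODE M21, which held 51719 of 51912 identifiers. Scripts were tested on simulated data. The lowest chi-square per degree of freedom between replicates was 3.74 over 48 pairs, so none was merged. Intervals and floors cover counting error only.

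All 10 members are named. Of each other list, up to 4 genes of highest mean CPM are named, and for Muc2 and Fabp2 the 6 genes of most similar pattern. Members and lists were chosen with earlier results of these data known. Alternatives were DESeq2 1.42.0, DESeq2 size factors, no filter, 1 fit of 32 libraries, a replicate block, and leaving out libraries.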

Additional observations from a re-analysis of the deposited data

Results flagged for a closer look

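A library was singled out where it lay far from the other 3 of its group by Dixon's criterion. Of 75 groups with counts examined, 18 met it, 16 of them by a high library. The criterion is set to single out about 1 group in 20 where values follow a normal distribution. These CPM values are skewed and often 0, so that rate does not apply to them. A group in which only 1 library holds counts always meets the criterion. Many of the libraries singled out hold only a few counts.

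Among non-neuronal libraries, Bern_ColNeg 2 stood high for Fabp2 at 57.4 CPM, while the other 3 Bern_ColNeg libraries spanned 5.07 to 12.3 CPM, and for Apob at 147 CPM, against 30.8 to 45.8 CPM. Crick_ColNeg 1 stood high for Apob at 115 CPM, against 12.5 to 24.4 CPM, and for Npc1l1 at 26.4 CPM, against 0.599 to 3.54 CPM. In SI, Crick_SiNeg 3 held 4.38 CPM of Olfm4, Bern_SiNeg 4 held 1.35 CPM of Cdx2 with the rest at 0, and Bern_SiNeg 2 held 0.316 CPM of Krt8 with the rest at 0.

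Among neuronal libraries, Crick_ColPos 4 stood high for Epcam at 16.7 CPM, against 0.264 to 3.06 CPM, and Bern_SiPos 3 for Fabp2 at 10.0 CPM, against 0.218 to 0.738 CPM. Crick_SiPos 2 was high for Vil1 at 12.9 CPM, against 8.57 to 9.19 CPM, and Crick_ColPos 3 for Npc1l1 at 2.11 CPM, against 0.438 to 0.586 CPM. In Bern_ColPos, library 2 was high for Krt8 at 2.98 CPM and for Cdx2 at 0.271 CPM, library 3 for Krt20 at 2.05 CPM, and library 1 was low for Apob at 0.413 CPM. Crick_ColPos 1 held 0.255 CPM of Cdx2 and Bern_SiPos 4 held 0.492 CPM of Olfm4, with the rest of both groups at 0. Crick_SiPos 4 was low for Muc2 at 3.02 CPM, against 10.4 to 10.9 CPM.

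The sort difference of Muc2 itself differed between segments (edgeR interaction of -3.19 on the log2 scale, adjusted p = 0.000348): the neuronal to non-neuronal ratio was lower in colon than in SI.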

How the results depend on the processing

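Over 88 reported results on single members, 55 were called. All 55 were called in the same direction by DESeq2, with DESeq2 size factors and without a filter on low counts, 15 of 16 in a single fit of 32 libraries, 47 of 50 with the replicate block, and 46 of 55 without the 6 libraries set apart. DESeq2 size factors moved the median of all genes in the sort comparison from -0.01 to -0.11 on the log2 scale and ended no call. Of the results among these 88 that were not called, DESeq2 called 8, the fits without a filter 10, and 1 passed without the 6 libraries. The 88 leave out uncalled results of members not given singly, in the comparisons between facilities and between sort, segment and facility effects. The counts of members below include them.

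Counts of members called moved as follows, and the cause was not tested. Between colon and SI in non-neuronal nuclei, the count of 6 over both facilities became 3 without the 6 libraries. In Bern alone the count of 2 became 4 by DESeq2, 5 without a filter and 1 without the 6 libraries, and in Crick alone the count of 1 became 2 by DESeq2, 4 without a filter, 2 in a single fit of 32 libraries and 0 without the 6 libraries. Between facilities in non-neuronal nuclei, the count of 1, over both segments and in SI, became 2 without a filter. Between colon and SI in neuronal nuclei, the count of 2 became 1 without the 6 libraries. For segment by facility the count of 0 became 1 by DESeq2, without a filter and in a single fit of 32 libraries, for sort by segment the count of 1 became 3 by DESeq2 and 4 without a filter, and for sort by facility the count of 0 became 1 without a filter.

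Leaving out each library in turn gave counts of 8 to 9 for the sorts over 4 combinations, 8 in Bern colon, 7 to 8 in Bern SI, 8 to 9 in Crick colon and 1 to 6 in Crick SI. Colon against SI gave 5 to 7 over both facilities, 2 to 4 in Bern, 1 to 2 in Crick and 1 to 2 in neuronal nuclei. Bern against Crick gave 1 to 2 in SI non-neuronal nuclei and 0 to 3 in neuronal nuclei, and sort by segment gave 1 to 2.

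Signs turned only for changes that had not been called. Npc1l1 in the sorts of Bern colon was 0.10 without the 6 libraries and -2.07 to 0.54 with each library left out. Vil1 between segments in non-neuronal nuclei was -0.38 without the 6 libraries and -0.60 to 0.56 with each left out, and in Bern -0.39 and -0.71 to 1.69. Krt20 in Bern ran from -1.15 to 0.20. In neuronal nuclei Npc1l1 was 0.12 without the 6 libraries and -0.86 to 0.12 with each left out, Epcam ran from -0.49 to 0.82 and Krt8 from -0.17 to 1.41.

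Replicate numbers did not meet the criterion for pairing, a correlation over 0.1 in every pair: same-numbered libraries correlated by a median of 0.025 in their deviations from the group means (-0.356 to 0.531 over 48 pairs), 11 pairs lay over 0.1, and 21 of 48 correlated best with their own number. Between the sorts of one segment the same numbers correlated by 0.067 to 0.531 in Crick (6 of 8 over 0.1, 6 of 8 best with their own number) and by at most 0.0475 in Bern (0 of 8 and 5 of 8), a hint from the data and not from the design. With the replicate block the count for colon against SI in neuronal nuclei was 1 and that for sort by segment was 2. Under the block Npc1l1 in Crick colon (-2.49, edgeR adjusted p = 0.172), Epcam between segments in non-neuronal nuclei (1.71, 0.244) and Fabp2 between segments in neuronal nuclei (-3.16, 0.0505) were not called, Krt8 in Crick SI (-2.70, 0.0226) and Krt8 for sort by segment (-4.09, 0.0396) were called, and Vil1 (-0.23) and Epcam in neuronal nuclei (-0.28) changed sign. No block was fitted for Bern against Crick, whose numbers belong to different facilities. Depth limits Cdx2, Krt8 in Bern SI and Olfm4, which rest on few counts.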
